A study of Mus musculus with 30 samples.

Results

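The integrated stress response was followed through 10 of its regulators and effectors: Atf4, Atf5, Atf3, Ddit3, Cebpb, Cebpg, Trib3, Ppp1r15a, Chac1 and Sesn2. The members were chosen by name, as the entries of the authors' abundance table whose mouse gene identifier carries one of these symbols in the GENCODE M21 annotation, and each symbol matched 1 entry of the 29861. RNA was sequenced from CCG-HTA-1, a primary tail fibroblast line of the genetically mixed UMHet3 stock, used at passage 4 and harvested 48 hours after a compound or its solvent DMSO had been added. The groups were Antimycin A, which blocks complex III of the respiratory chain; Dihydrorotenone, a blocker of complex I; Diphenyleneiodonium Cl, which inhibits flavoenzymes; Cardamonin, a chalcone from plants; the compound labelled BerberineA; Clofilium tosylate, a blocker of potassium channels; AEG 3482; Podofilox, which prevents microtubule assembly; and DMSO alone. Each compound had 3 libraries and DMSO had 6, 30 in all. All cells grew in high-glucose medium without pyruvate, with fetal calf serum and at ambient oxygen. The donor mice were 5 to 8 weeks old, apart from 8 to 11 weeks given for Dihydrorotenone replicate 1. Doses are not used here. Every library came from the same cell line, so p-values measure only the spread between these libraries, which may be technical. The library numbers ran consecutively within each group, so a compound and a library batch cannot be told apart.

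In the integrated stress response, kinases that sense unfolded protein, amino acid shortage, double-stranded RNA or mitochondrial and haem stress phosphorylate the translation factor eIF2. Protein synthesis falls in general, while messengers with upstream open reading frames, among them Atf4, Atf5, Ddit3 and Ppp1r15a, are translated more. ATF4 protein pairs with C/EBP family partners, binds C/EBP-ATF response elements and raises genes of amino acid supply, tRNA charging and stress adaptation, as well as its own inhibitors. RNA levels record this transcriptional output and not eIF2 phosphorylation or the amount of ATF4 protein.

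Response elements of this kind were looked for in the promoter windows of the members, from 250 bases before to 50 bases after each RefSeq start site (GRCm38.p6, 11 windows for the 10 members), because several of the genes moved together. Searched on both strands, the letters TGATGNAA, the core of a C/EBP-ATF response element, lay in the windows of Atf3, Trib3 and Chac1, and the letters TGACGTNA, a cyclic AMP response element-like ATF site, in those of Atf3 and Ppp1r15a. These letters occurred in 3.97% and 2.93% of the 32817 windows of that length over all genes. The sites are printed 5′ to 3′ on the strand of the gene, each in 30 bases, with the matched motif in capitals; the C/EBP-ATF elements and the second Atf3 site read as the reverse complement of the letters searched. The Atf3 sites lay at chr1:191183425-191183454 and chr1:191183325-191183354, both on the minus strand, the Trib3 site at chr2:152344028-152344057 on the minus strand, just downstream of the RefSeq start, the Ppp1r15a site at chr7:45526262-45526291 on the minus strand and the Chac1 site at chr2:119351038-119351067 on the plus strand.
Atf3, C/EBP-ATF element: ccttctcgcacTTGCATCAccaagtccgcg
Atf3, ATF site: tattaatagcaTTACGTCAgcctgggattg
Trib3, C/EBP-ATF element: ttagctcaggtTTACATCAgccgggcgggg
Ppp1r15a, ATF site: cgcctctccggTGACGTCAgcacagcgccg
Chac1, C/EBP-ATF element: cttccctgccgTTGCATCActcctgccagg
The longer Chac1 stretch, 237 bases up to the annotated first exon at chr2:119350992-119351228 on the plus strand, is shown because Chac1 had the second largest rise of the 10 genes and a match well upstream of its start.
Chac1, upstream stretch: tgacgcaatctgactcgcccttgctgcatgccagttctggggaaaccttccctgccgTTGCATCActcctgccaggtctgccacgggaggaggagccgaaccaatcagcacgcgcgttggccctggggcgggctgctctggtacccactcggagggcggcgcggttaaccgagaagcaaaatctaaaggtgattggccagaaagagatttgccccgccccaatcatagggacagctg
A match describes the letters and not binding, and the windows of Atf4, Atf5, Ddit3, Cebpb, Cebpg and Sesn2 held neither motif. Annotated exons took up 181 of the 250 bases before the start for Ddit3, 112 for Ppp1r15a and 45 for Sesn2. The Ddit3 window was therefore largely exon sequence, and its lack of a match says little about the promoter.

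Values are TPM, a unit of transcript abundance scaled for transcript length and library total, and therefore comparable between genes. Listed genes summed to 927024 to 937134 TPM per library and 12229 to 12700 genes reached 1 TPM, while the depth of sequencing cannot be read from TPM and is unknown. The 10 fibroblast markers were present in every library, and Krt5, Myod1 and Plin1, which define keratinocytes, muscle and fat cells, were listed at 0 in all 30. Other markers on the same lists were present at low levels, such as Krt10 at 1.02 to 2.38 TPM, and no library exceeded 2.88 TPM for the sum of 5 keratinocyte markers or 1.52 TPM for that of 5 muscle markers. Summed fibroblast markers ranged from 10190 to 11780 TPM in DMSO and from 3939 to 5002 TPM in Cardamonin, the lowest range of any group. The 4 melanocyte markers, mostly Mlana with Dct at 0 in 26 libraries, summed to 4.54 to 6.94 TPM in DMSO, 16.1 to 18.6 TPM in Antimycin A, 12.1 to 13.1 TPM in BerberineA, 12.0 to 12.1 TPM in Dihydrorotenone, 9.71 to 14.54 TPM in Clofilium tosylate and 12.5 to 15.8 TPM in Diphenyleneiodonium Cl. In Cardamonin and AEG 3482 they summed to 1.27 to 1.83 and 1.55 to 2.22 TPM. The 4 endothelial markers, mostly Tek with Cdh5 at 0 in 20 libraries, summed to 5.42 to 8.71 TPM in DMSO, 1.09 to 1.18 TPM in Cardamonin and 1.63 to 1.77 TPM in AEG 3482, and to between 4.98 and 8.01 TPM in the other 6 compounds. The 6 leukocyte markers summed to 154 to 210.3 TPM in DMSO, mostly Lyz2, and to between 53.1 and 129 TPM over the compound libraries. Ptprc and Itgam did not exceed 0.876 and 0.885 TPM. Cd68 was present in all 30 libraries, at 11.5 to 41.37 TPM with a DMSO mean of 13.07 TPM. Adgre1 was at 1.617 to 12.12 TPM with a DMSO mean of 10.43 TPM. The part of these markers in the results was not tested, and in bulk RNA fewer cells of a type and less RNA per cell cannot be told apart. Most members have transcript sequence of their own. The exceptions by shared 31-base words were Cebpb (19.6%, mainly with Tmem189 on the opposite strand), Ddit3 (6.78%, with a second gene model also named Ddit3 and with Mars), Atf5 (2.76%) and Cebpg (1.44%). The values of these genes are less certain, since no strand setting is given in the sources used here. The percentages count shared words and do not measure how far the TPM values may be off.

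Each compound was compared with DMSO to ask which of the regulators it moved. Cardamonin and Podofilox raised nearly all of them, Antimycin A, Clofilium tosylate and AEG 3482 raised 8, and BerberineA raised 4. Dihydrorotenone raised none and lowered 4, and Diphenyleneiodonium Cl raised 2 and lowered 2, with the rest not called. Together the 10 genes summed to 495 ± 24.9 TPM under DMSO alone (SD, n = 6) and to 1388 TPM in Cardamonin, 1006 in Podofilox, 883 in Antimycin A, 726 in AEG 3482 and 852 in Clofilium tosylate. The sum was 492 TPM in Dihydrorotenone, 538 in Diphenyleneiodonium Cl and 575 in BerberineA. Genes were called at a Benjamini-Hochberg adjusted p below 0.05 in limma, over all 13644 genes tested, and all 10 members passed the filter on low values. A fold change here is on the log2(TPM + 1) scale, which understates the change of the less abundant genes.

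The counts of members called have to be read against all genes, because some compounds moved much of the transcriptome. In Podofilox all 10 were higher, against 26.2% of all genes higher, 20% lower and 46.2% called in either direction. In Cardamonin 9 were higher and none lower, against 37.3% higher, 33% lower and 70.3% called. Antimycin A raised 8 and lowered none, with 21.8% of all genes higher, 15.5% lower and 37.3% called. Clofilium tosylate raised 8 and lowered none, with 10.9% higher, 12.5% lower and 23.4% called. AEG 3482 also raised 8 and lowered none, in a comparison where 41.3% of all genes were higher, 26.8% lower and 68.1% called. The share of members called in AEG 3482 (8 of 10) and in Cardamonin (9 of 10) was within 1.5 times that of all genes. With 68.1% and 70.3% of all genes called there, no share could exceed that bound, for the members or for any list below. In those 2 compounds the counts called therefore cannot by themselves set the members apart, although none of the calls was lower. After median-ratio scaling or quantile normalization AEG 3482 raised 6, and the share of higher among its called genes was 60.7% as deposited, 50.8% after the first and 54.3% after the second. BerberineA raised 4 and lowered none, against 12.6% higher, 9.16% lower and 21.7% called, and raised 3 after median-ratio scaling. In Diphenyleneiodonium Cl 2 were higher and 2 lower, with 14% of all genes higher, 11.7% lower and 25.7% called. Dihydrorotenone raised none and lowered 4, against 4.95% higher, 9.43% lower and 14.4% called. The Dihydrorotenone count fell to 2 under median-ratio scaling, under quantile normalization or when only Dihydrorotenone and DMSO were fitted, and to 1 without its replicate 1. Among the called genes of Dihydrorotenone 34.4% were higher as deposited, 53.8% after median-ratio scaling and 47.2% after quantile normalization.

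Rises of at least 2-fold on this scale were counted separately. By that measure Cardamonin raised 6 members, Podofilox 5, Antimycin A 4, Clofilium tosylate 4 and AEG 3482 3, compared with 5.5%, 1.25%, 1.3%, 0.396% and 4.51% of all genes in the same order. No member rose that far in BerberineA, Diphenyleneiodonium Cl or Dihydrorotenone, where 0.44%, 0.733% and 0.0733% of all genes did. Median log2 fold changes of the 10 genes were 1.27 in Cardamonin, 0.97 in Podofilox, 0.80 in Antimycin A, 0.52 in AEG 3482 and 0.48 in Clofilium tosylate. They were −0.11 in Dihydrorotenone, −0.05 in Diphenyleneiodonium Cl and 0.21 in BerberineA. The median over all genes tested lay between −0.03 and 0.10 in every compound. Members whose 3 treated libraries all lay above every DMSO library numbered 9 in Cardamonin (32.9% of all genes) and 9 in Podofilox (21.7%). They numbered 8 in Clofilium tosylate (9.56%), 8 in Antimycin A (18%) and 7 in AEG 3482 (36.1%). BerberineA had 4 (10.5%), Diphenyleneiodonium Cl 2 (13.3%) and Dihydrorotenone 0 (4.99%), and Dihydrorotenone had 2 below every DMSO library (9.87%). All 8 comparisons share the same DMSO libraries, so they are not independent of one another.

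**Figure D1:**
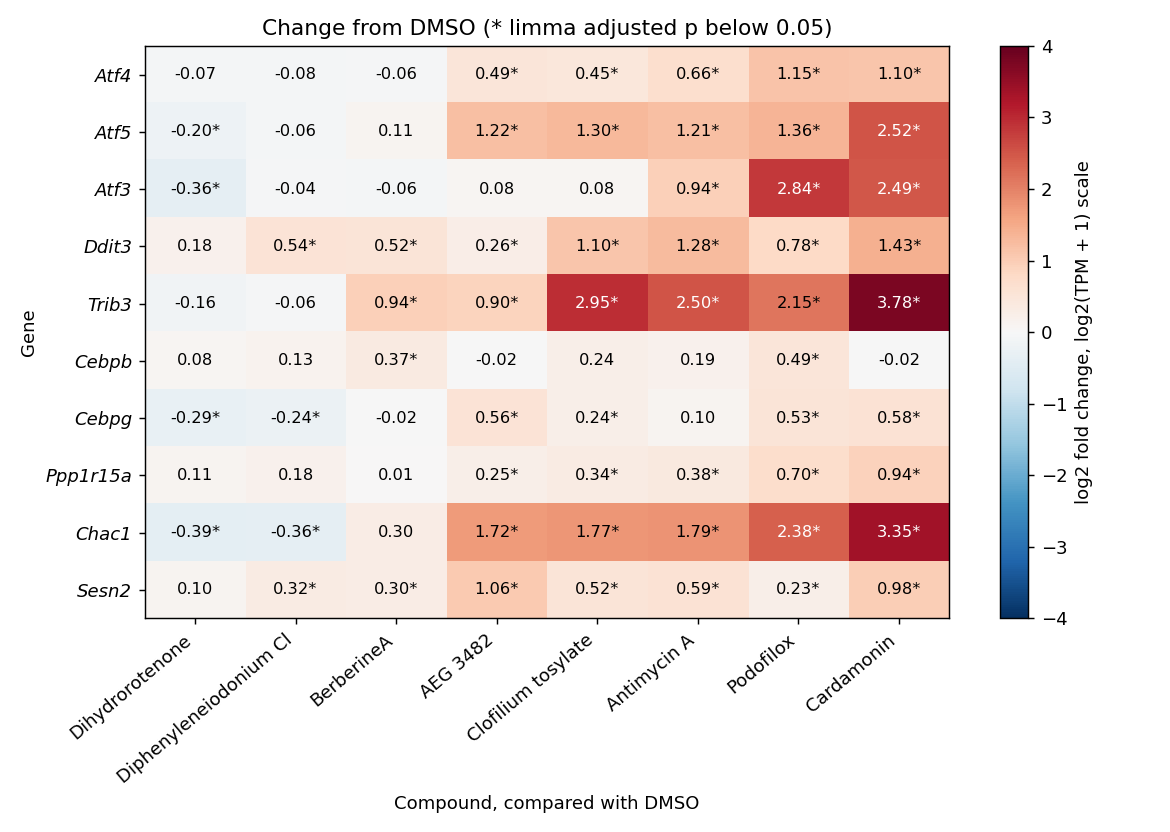
Log2 fold change from DMSO of each of the 10 genes (vertical axis) in each of the 8 compounds (horizontal axis), on the log2(TPM + 1) scale, with colour from −4 (blue) to 4 (red) and an asterisk where the limma adjusted p was below 0.05. The columns of Cardamonin and Podofilox are red for nearly every gene, from 3.78 for Trib3 in Cardamonin downward, while those of Dihydrorotenone and Diphenyleneiodonium Cl are pale.

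Atf4 (ENSMUSG00000042406, chromosome 15, positions 80255184 to 80257541, plus strand, GRCm38) encodes the transcription factor at the centre of the response. Its RNA was at 125, 134 and 144 TPM in DMSO (lowest, median and highest of 6). The 3 libraries held 289, 312 and 295 TPM in Podofilox and 282, 281 and 300.4 TPM in Cardamonin. Those of Antimycin A held 212, 214 and 210.3 TPM. Every library of these 3 compounds lay above every DMSO library. AEG 3482 reached 185, 190.0 and 189 TPM and Clofilium tosylate 183, 185 and 181 TPM, again above all of DMSO. Dihydrorotenone (127 ± 6.64 TPM, SD, n = 3), Diphenyleneiodonium Cl (127 ± 6.72 TPM) and BerberineA (128 ± 6.50 TPM) overlapped DMSO. The log2 fold change was 1.15 ± 0.04 (SE) in Podofilox (limma adjusted p = 1.55e-16), 1.10 ± 0.04 in Cardamonin (adjusted p = 1.19e-17) and 0.66 ± 0.04 in Antimycin A (adjusted p = 9.07e-12). It was 0.49 in AEG 3482 and 0.45 in Clofilium tosylate (adjusted p = 2.25e-10 and 2.92e-08). The 95% intervals of the 3 uncalled changes ran from −0.16 to 0.02 in Dihydrorotenone, −0.17 to 0.0089 in Diphenyleneiodonium Cl and −0.15 to 0.03 in BerberineA, so a rise as large as that in Clofilium tosylate lay outside them.

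Atf5 (ENSMUSG00000038539, chromosome 7, positions 44812256 to 44816658, minus strand) encodes a relative of ATF4 that is linked to the mitochondrial unfolded protein response. It was at 78.9, 82.8 and 86.5 TPM in DMSO (lowest, median and highest) and at 460.1, 448 and 522 TPM in Cardamonin. Podofilox libraries held 214, 215 and 212 TPM and Clofilium tosylate libraries 196, 224 and 194 TPM. AEG 3482 gave 186, 198 and 194 TPM and Antimycin A 179.5, 200.3 and 197 TPM. Cardamonin stood alone at 5.79 times the DMSO mean, and the other 4 raised groups lay close together at 2.33 to 2.59 times, all without overlap with DMSO. The log2 fold change in Cardamonin was 2.52 ± 0.05 (SE; limma adjusted p = 3.98e-23), and in Podofilox, Clofilium tosylate, AEG 3482 and Antimycin A it was 1.36, 1.301, 1.22 and 1.21 (adjusted p at most 4.48e-15). Dihydrorotenone lowered Atf5 to 67.8, 75.6 and 71.1 TPM, below every DMSO library. That fall was small, at −0.20 ± 0.05 (adjusted p = 0.00752), and was not called without Dihydrorotenone replicate 1 (adjusted p = 0.0739). BerberineA libraries, at 87.4, 91.5 and 88.7 TPM, were all above DMSO but the change of 0.11 was not called (adjusted p = 0.111), and Diphenyleneiodonium Cl (78.8 ± 3.23 TPM) overlapped DMSO. The ratio of Atf5 to Atf4 TPM, chosen for description after the values were seen, was 0.578 to 0.645 in DMSO libraries, 1.59 to 1.74 in Cardamonin and 0.689 to 0.741 in Podofilox, although the last 2 had nearly the same Atf4 level.

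**Figure D2:**
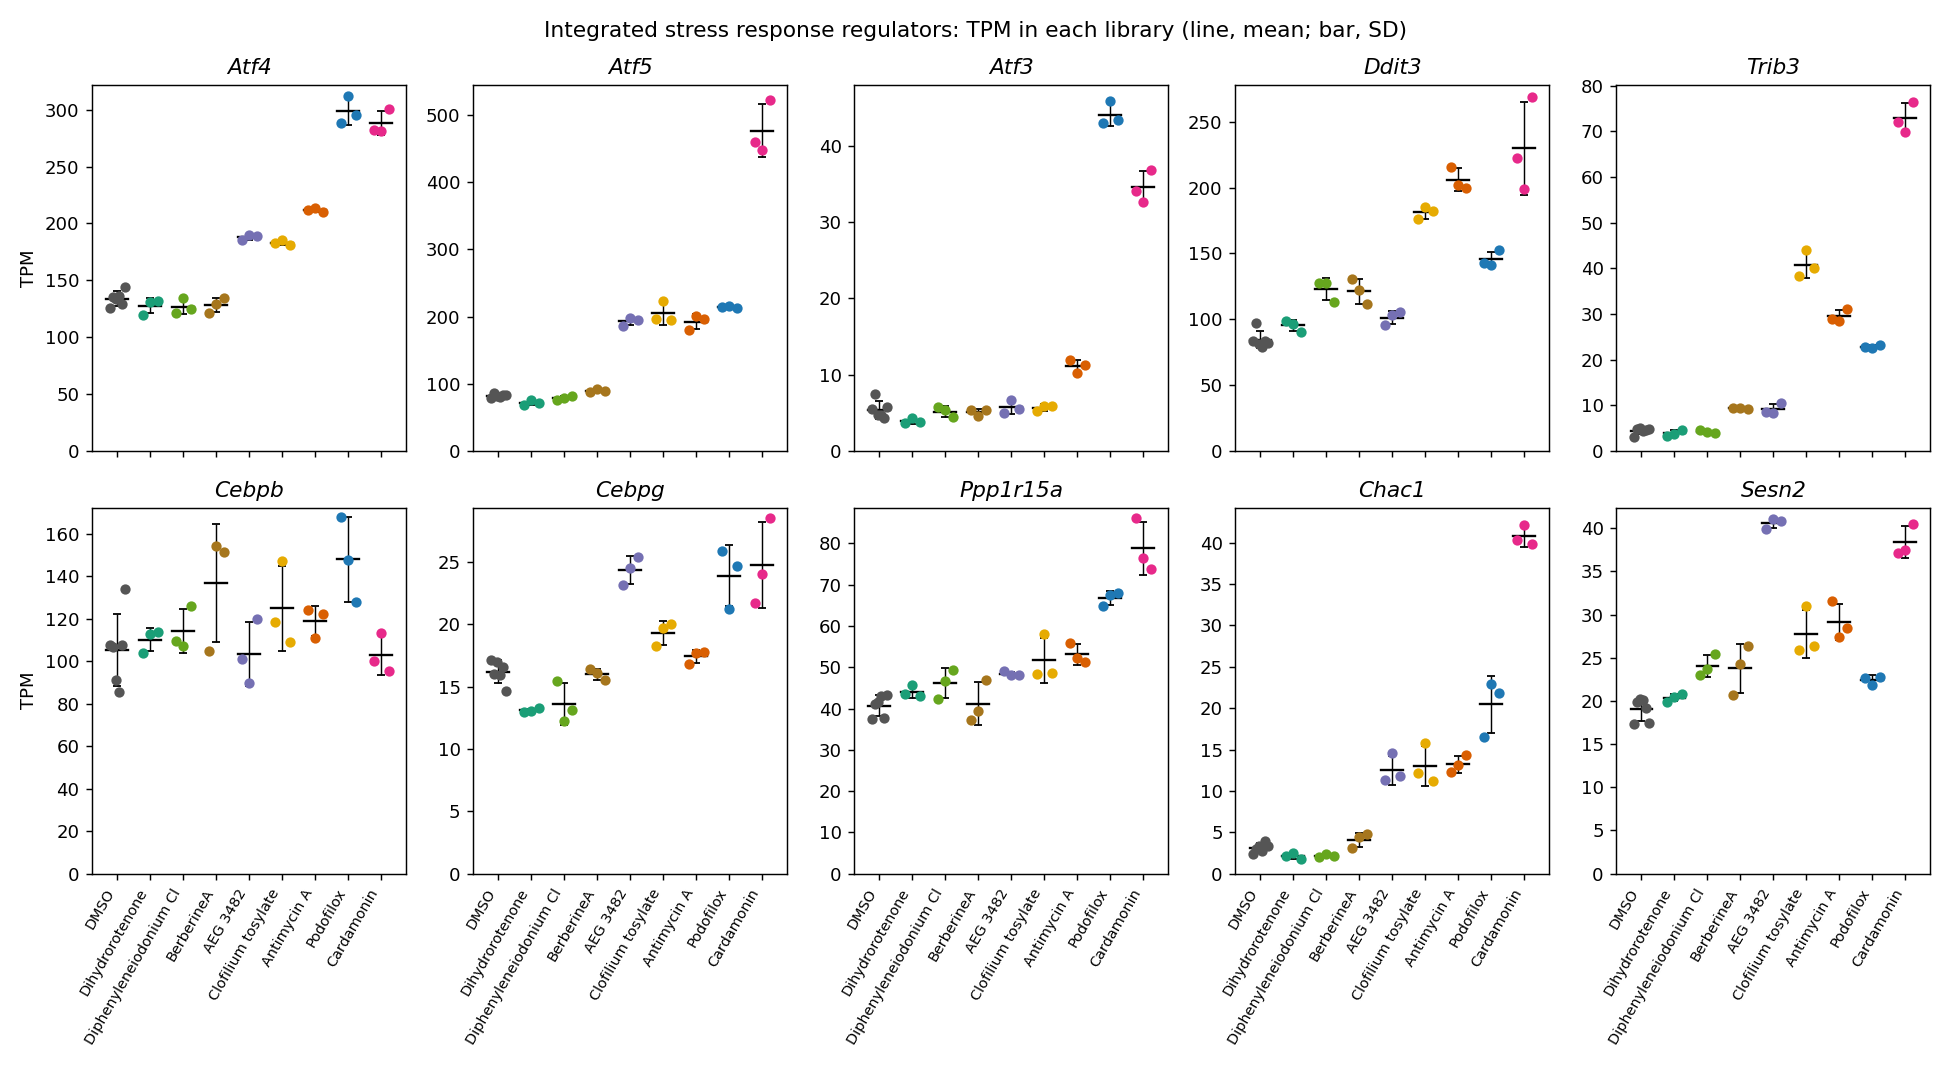
TPM of each of the 10 genes (vertical axes, starting at 0, a scale per gene) in each of the 30 libraries, by group (horizontal axis), with a horizontal line at the group mean and a bar of 1 SD. Cardamonin is highest for Atf5, Trib3, Chac1 and Ppp1r15a, Podofilox for Atf3, and AEG 3482 has Sesn2 values of 39.95 to 41.05 TPM beside Atf3 values within the DMSO range.

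Atf3 (ENSMUSG00000026628, chromosome 1, positions 191170296 to 191218039, minus strand) encodes a stress-induced factor that mostly represses its targets. It was scarce in DMSO, at 4.32, 5.08 and 7.48 TPM (lowest, median and highest). Podofilox libraries held 43.0, 45.9 and 43.4 TPM and Cardamonin libraries 34.1, 32.6 and 36.9 TPM. Antimycin A was intermediate with 11.9, 10.2 and 11.2 TPM. These 3 groups lay above every DMSO library and the other 5 overlapped DMSO. Atf3 changed by 2.84 ± 0.11 (SE, log2) in Podofilox (limma adjusted p = 2.1e-16), 2.49 ± 0.11 in Cardamonin (adjusted p = 1.11e-16) and 0.94 ± 0.11 in Antimycin A (adjusted p = 1.51e-07). In Clofilium tosylate and AEG 3482, which raised Atf4 and Atf5, Atf3 stood at 5.19, 5.93 and 5.91 TPM and 5.01, 6.67 and 5.46 TPM. Those changes of 0.08 and 0.08 were not called (adjusted p = 0.673 and 0.531), with 95% intervals of −0.15 to 0.30 and −0.14 to 0.30. Antimycin A differed from Clofilium tosylate in Atf3 by 0.86 ± 0.13 (SE; limma adjusted p = 0.000118), a comparison in which 5.21% of all genes were called. Dihydrorotenone, at 3.64, 4.34 and 3.82 TPM, was lower (−0.36 ± 0.11, adjusted p = 0.0258), with 1 library inside the DMSO range and the call lost after either median-ratio or quantile scaling, in the fit with DMSO alone, and without Dihydrorotenone replicate 1 or 3 (adjusted p 0.0514 to 0.140).

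Ddit3 (ENSMUSG00000025408, chromosome 10, positions 127290774 to 127296288, plus strand) encodes CHOP, which pairs with other C/EBP proteins and is known for its part in death under prolonged stress. DMSO libraries held 78.5, 82.5 and 97.0 TPM (lowest, median and highest). It reached 222, 199 and 268 TPM in Cardamonin and 216, 202 and 199.8 TPM in Antimycin A. Clofilium tosylate gave 176, 185 and 182 TPM and Podofilox 143, 141 and 152 TPM. All 4 groups lay above DMSO, with Podofilox the lowest of them. Ddit3 was also raised where Atf4 was not. Diphenyleneiodonium Cl libraries held 127, 128 and 113 TPM and BerberineA libraries 130.4, 122 and 112 TPM, again above every DMSO library. Log2 fold changes were 1.43 ± 0.07 (SE) in Cardamonin, 1.28 in Antimycin A, 0.78 in Podofilox and 1.10 in Clofilium tosylate (limma adjusted p at most 1.55e-09). They were 0.54 in Diphenyleneiodonium Cl (adjusted p = 2.61e-06) and 0.52 in BerberineA (adjusted p = 6.08e-06). AEG 3482, at 95.6, 103 and 105 TPM, partly overlapped DMSO. Its change of 0.26 ± 0.07 was called as deposited (adjusted p = 0.00204) but not after median-ratio scaling (0.16, adjusted p = 0.0819) or quantile normalization (0.11, adjusted p = 0.214). Dihydrorotenone (95.2 ± 4.41 TPM) was not called (change 0.18, adjusted p = 0.101), but was without DMSO replicate 2 (adjusted p = 0.0324) or without Cardamonin replicate 3 (adjusted p = 0.0460). Ddit3 shares 68 exon bases with Mars, a methionyl-tRNA synthetase gene on the opposite strand, and 105 with the second Ddit3 model.

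Cebpg and Cebpb encode C/EBP factors that dimerise with ATF4 and CHOP. Cebpg (ENSMUSG00000056216, chromosome 7, positions 35046422 to 35056573, minus strand) was at 14.6, 16.3 and 17.1 TPM in DMSO (lowest, median and highest). It was at 21.7, 24.0 and 28.5 TPM in Cardamonin, 23.2, 24.5 and 25.4 TPM in AEG 3482 and 25.9, 21.2 and 24.6 TPM in Podofilox. These 3 compounds gave nearly the same rise, without overlap with DMSO, at 0.58 ± 0.07, 0.56 ± 0.07 and 0.53 ± 0.07 on the log2 scale (SE; limma adjusted p = 1.02e-07, 1.92e-07 and 1.19e-06). In Antimycin A, which raised Atf4 more than AEG 3482 did, Cebpg was at 16.8, 17.7 and 17.8 TPM and its change of 0.10 was not called (adjusted p = 0.297). Clofilium tosylate raised it by 0.24 (adjusted p = 0.0166), a call lost without its replicate 2 (adjusted p = 0.0723) or 3 (0.0814). Dihydrorotenone, at 13.0, 13.0 and 13.3 TPM, was below every DMSO library (−0.29 ± 0.07, adjusted p = 0.00859). Diphenyleneiodonium Cl was also lower (−0.24, adjusted p = 0.0155), with overlap and with the call lost without its replicate 2 (adjusted p = 0.148) or 3 (0.0717).

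Cebpb (ENSMUSG00000056501, chromosome 2, positions 167688915 to 167690418, plus strand) was called in 2 of 8 compounds, the fewest of any member. DMSO libraries spread over 85.4, 107 and 134 TPM (lowest, median and highest), and every compound overlapped them. Podofilox libraries held 168, 148 and 128 TPM, a rise of 0.49 ± 0.13 (SE; limma adjusted p = 0.00277). BerberineA libraries held 105, 154 and 152 TPM, of which the first lay within DMSO and the other 2 above it. Its rise of 0.37 (adjusted p = 0.0427) was lost in many settings, among them without BerberineA replicate 2 (adjusted p = 0.240) or 3 (0.221) and without any 1 of DMSO replicates 1 to 5 (0.0528 to 0.0871). Cardamonin left Cebpb at 100.4, 114 and 95.5 TPM, with a 95% interval of −0.29 to 0.24 for the log2 fold change. The wide spread within groups limits what can be seen for this gene: the SE of its fold change was 0.13, against 0.04 for Atf4.

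Ppp1r15a (ENSMUSG00000040435, chromosome 7, positions 45522916 to 45526268, minus strand) encodes GADD34, which brings a phosphatase to eIF2 and so ends the response. DMSO libraries held 37.4, 41.4 and 43.2 TPM (lowest, median and highest). Cardamonin libraries held 86.1, 76.5 and 73.9 TPM and Podofilox libraries 64.8, 67.6 and 67.9 TPM. Antimycin A gave 56.0, 52.1 and 51.3 TPM and Clofilium tosylate 48.4, 58.0 and 48.7 TPM. All 4 groups lay above DMSO, though no rise reached 2-fold on this scale. On the log2 scale Ppp1r15a rose by 0.94 ± 0.07 (SE) in Cardamonin (limma adjusted p = 4.69e-12), 0.70 in Podofilox (adjusted p = 5.34e-09), 0.38 in Antimycin A (adjusted p = 8.79e-05) and 0.34 in Clofilium tosylate (adjusted p = 0.000708). AEG 3482, at 49.0, 48.1 and 48.2 TPM, was also above DMSO, with a change of 0.25 (adjusted p = 0.00247) that was not called after median-ratio scaling (0.14, adjusted p = 0.0543) or quantile normalization (0.07, adjusted p = 0.346). Diphenyleneiodonium Cl stood at 42.3, 46.8 and 49.4 TPM, of which the first lay within the DMSO range, and its change of 0.18 was not called (adjusted p = 0.0593). It was called without its replicate 1 (0.24, adjusted p = 0.0306), and, with the change itself nearly or wholly as before, without BerberineA replicate 1 or 3, Clofilium tosylate replicate 2, or DMSO replicate 4 or 6 (adjusted p 0.0341 to 0.0474). Dihydrorotenone and BerberineA were not called, at 44.1 ± 1.43 TPM and 41.2 ± 5.17 TPM (SD, n = 3).

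Trib3 (ENSMUSG00000032715, chromosome 2, positions 152337422 to 152344032, minus strand) encodes a pseudokinase that binds ATF4 and restrains it. Its rise in Cardamonin, 3.78 ± 0.10 (SE; limma adjusted p = 2.6e-21), was the largest change from DMSO of the 10 genes on the log2(TPM + 1) scale. In DMSO it was at 3.05, 4.68 and 4.97 TPM (lowest, median and highest). Cardamonin libraries held 72.2, 69.9 and 76.5 TPM, Clofilium tosylate libraries 38.3, 43.9 and 39.95 TPM and Antimycin A libraries 28.8, 28.3 and 31.2 TPM. Podofilox gave 22.8, 22.4 and 23.2 TPM. Every one of these libraries lay far above the highest DMSO library. BerberineA, at 9.45, 9.35 and 9.19 TPM, and AEG 3482, at 8.52, 8.196 and 10.5 TPM, formed a lower step, also without overlap. Ratios to the DMSO mean were 16.5, 9.21, 6.66 and 5.16 in Cardamonin, Clofilium tosylate, Antimycin A and Podofilox, and 2.11 and 2.05 in BerberineA and AEG 3482. The log2 fold change in BerberineA was 0.94 ± 0.10 (SE; limma adjusted p = 1.04e-07) and in AEG 3482 0.90 ± 0.10 (adjusted p = 8.12e-09). In BerberineA, where Atf4 overlapped DMSO, this was the largest of the 4 rises among the members. Dihydrorotenone (3.86 ± 0.661 TPM) and Diphenyleneiodonium Cl (4.17 ± 0.360 TPM) overlapped DMSO, at −0.16 (adjusted p = 0.317) and −0.06 (adjusted p = 0.705). Without DMSO replicate 1, whose Trib3 value was the lowest, the change in Dihydrorotenone was −0.24 (adjusted p = 0.0380).

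Chac1 (ENSMUSG00000027313, chromosome 2, positions 119351229 to 119354381, plus strand) encodes an enzyme that breaks down glutathione, and carries the upstream C/EBP-ATF match printed above. DMSO libraries held 2.35, 3.12 and 3.96 TPM (lowest, median and highest). Cardamonin libraries held 40.4, 42.2 and 39.8 TPM and Podofilox libraries 16.6, 22.9 and 21.9 TPM. Antimycin A gave 12.2, 13.1 and 14.3 TPM, Clofilium tosylate 12.1, 15.8 and 11.2 TPM and AEG 3482 11.3, 14.52 and 11.8 TPM. Neighbours among those last 3 compounds were not separated in Chac1, and all 5 groups lay above DMSO. Chac1 rose on the log2 scale by 3.35 ± 0.13 (SE) in Cardamonin (limma adjusted p = 5.54e-18), 2.38 in Podofilox (adjusted p = 6.84e-14) and 1.79, 1.77 and 1.72 in Antimycin A, Clofilium tosylate and AEG 3482 (adjusted p at most 2.09e-10). Dihydrorotenone (2.09, 2.50 and 1.78 TPM) and Diphenyleneiodonium Cl (1.97, 2.40 and 2.19 TPM) were at the low end of DMSO with overlap. Both small falls, −0.39 (adjusted p = 0.0356) and −0.36 (adjusted p = 0.0355), lost the call in many settings, among them with no filter on low values (0.0644 and 0.0635), in fits with DMSO alone (0.0953 and 0.0608) and without DMSO replicate 3, 5 or 6 (0.0541 to 0.0783). They were also lost without Dihydrorotenone replicate 1 or 3 (0.107 and 0.174) and without Diphenyleneiodonium Cl replicate 1, 2 or 3 (0.0531 to 0.142). BerberineA, at 3.11, 4.38 and 4.74 TPM, was not called (change 0.30, adjusted p = 0.0956), but was without its replicate 1 (0.44, adjusted p = 0.0220) or DMSO replicate 5 (adjusted p = 0.0459).

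Sesn2 (ENSMUSG00000028893, chromosome 4, positions 132492032 to 132510501, minus strand) encodes a leucine sensor that restrains the growth kinase mTORC1 and is also a known target of NRF2 and p53. DMSO libraries held 17.4, 19.5 and 20.2 TPM (lowest, median and highest). The highest group was AEG 3482, with 39.95, 41.0 and 40.8 TPM. Cardamonin followed with 37.2, 37.5 and 40.5 TPM. Both lay far above DMSO, at 2.13 and 2.02 times its mean. Antimycin A libraries held 31.5, 27.4 and 28.5 TPM and Clofilium tosylate libraries 25.9, 30.99 and 26.3 TPM. Diphenyleneiodonium Cl gave 22.9, 23.6 and 25.5 TPM, BerberineA 20.7, 24.3 and 26.3 TPM and Podofilox 22.7, 21.9 and 22.8 TPM. All 7 groups were above every DMSO library, and Podofilox, with the highest mean of Atf4, had the smallest of the 7 rises. That rank holds for the means only. Podofilox was not separated from BerberineA (limma adjusted p = 0.492) or Diphenyleneiodonium Cl (adjusted p = 0.364), and BerberineA replicate 1 lay below every Podofilox library. Sesn2 rose on the log2 scale by 1.06 ± 0.07 (SE) in AEG 3482 (limma adjusted p = 3.34e-13), 0.98 in Cardamonin (adjusted p = 9.5e-13), 0.59 in Antimycin A (adjusted p = 9.73e-08) and 0.52 in Clofilium tosylate (adjusted p = 2.2e-06). It was 0.32 in Diphenyleneiodonium Cl, 0.30 in BerberineA and 0.23 in Podofilox (adjusted p = 0.000597, 0.00143 and 0.00561). Dihydrorotenone (19.9, 20.4 and 20.8 TPM) overlapped DMSO (change 0.10, adjusted p = 0.375).

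The 9 groups were ordered by level and each neighbour in that order was tested, with limma p-values adjusted over all genes within the pair. A call therefore depends on the other genes of the pair as well as on the spread. Some uncalled steps had 95% intervals above 0, among them Antimycin A over Clofilium tosylate in Ddit3 (0.0129 to 0.3521). Another was Clofilium tosylate over Diphenyleneiodonium Cl in Sesn2 (0.03885 to 0.354). Trib3 had the most steps, with 5 of 8 neighbouring groups different: Cardamonin above Clofilium tosylate (adjusted p = 4.04e-07), Clofilium tosylate above Antimycin A (adjusted p = 0.0156), Antimycin A above Podofilox (adjusted p = 0.0122), Podofilox above BerberineA (adjusted p = 2.02e-09) and AEG 3482 above DMSO. For Atf4, Podofilox (mean 299 TPM) and Cardamonin (288 TPM) did not differ beyond their spread (adjusted p = 0.384), nor did AEG 3482 and Clofilium tosylate, while Cardamonin stood above Antimycin A (adjusted p = 2.07e-08) and Antimycin A above AEG 3482 (adjusted p = 0.00369). For Atf3, Podofilox was above Cardamonin by 0.34 ± 0.13 (SE; adjusted p = 0.0209). For Ddit3 the top 3 groups, Cardamonin, Antimycin A and Clofilium tosylate, were not separated as neighbours. Cardamonin was nevertheless above Clofilium tosylate (0.33, adjusted p = 0.00106), and Clofilium tosylate was above Podofilox (adjusted p = 0.00331). For Sesn2, AEG 3482 and Cardamonin were not separated (adjusted p = 0.401) and Cardamonin was above Antimycin A (adjusted p = 8.69e-05), the 1 step of 8 that was called. The pairs of compounds named here differed in much of the transcriptome: 65.1% of all genes were called between Cardamonin and Clofilium tosylate, 64.2% between Cardamonin and Antimycin A, 57.8% between Cardamonin and Podofilox and 64.4% between Antimycin A and AEG 3482. The share was 41.4% between Antimycin A and Podofilox, 42.6% between Podofilox and BerberineA and 39.1% between Podofilox and Clofilium tosylate. Over the 28 pairs of compounds, p-values adjusted over all genes within each pair called 26 for Trib3, 24 each for Ddit3 and Chac1, 23 for Atf4, 22 for Atf5, 19 each for Atf3 and Cebpg, 18 for Sesn2, 17 for Ppp1r15a and 5 for Cebpb. The share of all genes called ran from 0.623% between Diphenyleneiodonium Cl and BerberineA to 67.1% between Dihydrorotenone and Cardamonin. The number of pairs called for an average gene was not computed, so these counts alone do not set the members apart.

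Some pairs of compounds were called apart in few members and others in most. The respiratory chain blockers Antimycin A and Dihydrorotenone differed in 9 of the 10 genes, all higher in Antimycin A, where 15.5% of all genes differed. The differences ran from 0.26 for Ppp1r15a (adjusted p = 0.0235) to 2.65 for Trib3 (adjusted p = 9.98e-15), with Cebpb the exception. Doses are not used here, so this compares those cultures and not the potency of the compounds. Antimycin A and Clofilium tosylate, in contrast, differed in 3 members, with 5.21% of all genes called. Atf4 was higher by 0.21 ± 0.05 (SE; limma adjusted p = 0.011) and Atf3 by 0.86 in Antimycin A, and Trib3 was lower there (−0.45 ± 0.11, adjusted p = 0.0156). Antimycin A exceeded Diphenyleneiodonium Cl in 8 members (6.04% of all genes called) and BerberineA in 8 (9.04%). Between Dihydrorotenone and Diphenyleneiodonium Cl only Ddit3 was called, lower in Dihydrorotenone (−0.36 ± 0.08, SE; limma adjusted p = 0.0121), where 3.68% of all genes were called. The uncalled differences were not all near 0, among them Sesn2 (−0.23 ± 0.08), Atf3 (−0.31 ± 0.13) and Atf5 (−0.14 ± 0.06). Diphenyleneiodonium Cl and BerberineA differed in Trib3 (−1.002, adjusted p = 1.9e-05) and Chac1 (−0.66, adjusted p = 0.0271), both lower in Diphenyleneiodonium Cl, in a comparison that called 0.623% of all genes. Dihydrorotenone was below Cardamonin in 9 members, with 67.1% of all genes called. Cardamonin exceeded AEG 3482 in 7 members, from 0.61 for Atf4 to 2.88 for Trib3, where 55.3% of all genes differed. AEG 3482 was below Podofilox in 8 members and above it in Sesn2 (0.83 ± 0.08, adjusted p = 9.01e-10), with 60.3% of all genes called. Between Cardamonin and AEG 3482, Cebpb, Cebpg and Sesn2 were not called, at −0.00034 ± 0.15, 0.02 ± 0.08 and −0.08 ± 0.08.

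Set against Atf4 in the same library, the other genes took different shares in different compounds. These ratios of TPM were chosen after the values were seen and are given without a test. Ddit3 was 0.566 to 0.718 of Atf4 in DMSO libraries. It was 0.945 to 1.02 of Atf4 in Antimycin A, 0.961 to 1.01 in Clofilium tosylate, 0.905 to 1.05 in Diphenyleneiodonium Cl and 0.830 to 1.07 in BerberineA, all above DMSO. It was 0.516 to 0.558 in AEG 3482 and 0.453 to 0.516 in Podofilox, all below DMSO, and 0.707 to 0.893 in Cardamonin. Trib3 was 0.0244 to 0.0372 of Atf4 in DMSO, 0.248 to 0.256 in Cardamonin and 0.209 to 0.237 in Clofilium tosylate, but 0.0719 to 0.0790 in Podofilox. Sesn2 was 0.121 to 0.151 of Atf4 in DMSO, 0.215 to 0.216 in AEG 3482 and 0.0701 to 0.0787 in Podofilox. Chac1 was 0.0188 to 0.0306 of Atf4 in DMSO and 0.132 to 0.150 in Cardamonin. In Podofilox, Antimycin A, Clofilium tosylate and AEG 3482 the Chac1 ratio covered overlapping ranges between 0.0574 and 0.0854.

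**Figure D3:**
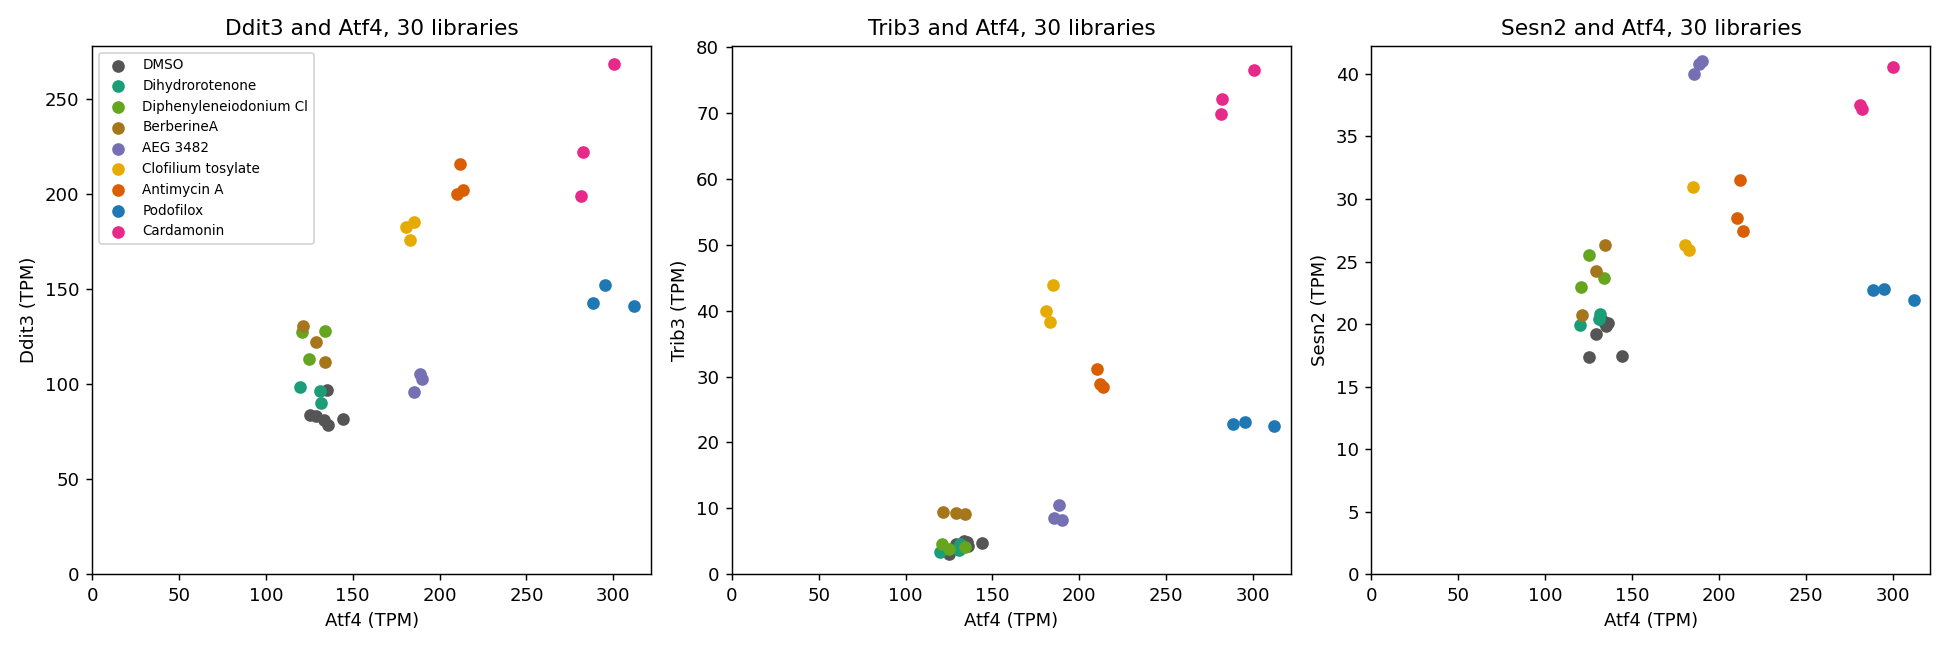
Ddit3, Trib3 and Sesn2 (vertical axes, TPM) against Atf4 (horizontal axis, TPM) in the 30 libraries, coloured by group, with all axes starting at 0. Podofilox lies at the right of each panel, with Atf4 at 288.6 to 312.2 TPM. Its Sesn2, at 21.9 to 22.82 TPM, has the lowest mean of the 7 raised groups, although BerberineA replicate 1 is lower at 20.69 TPM. The Podofilox means of Ddit3 and Trib3 rank 4th of 9, while AEG 3482 has the highest Sesn2 mean at a middling Atf4 level.

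The genes whose pattern over the 9 group means was most like that of each member were found by Pearson's r on log2(TPM + 1) among 10210 protein-coding genes. The 9 points share libraries and the DMSO baseline, so r is a description of these groups. Atf5 was closest to Slc7a5 (r = 0.99), the large neutral amino acid transporter, and Angptl6 (0.98). Chac1 was closest to Mthfd2 (0.99), a mitochondrial folate enzyme, and Gars (0.99), a glycyl-tRNA synthetase. Atf4 lay closest to Arhgef2 (0.98) and Shmt2 (0.97), Cebpg to Slc7a1 (0.98) and Tsfm (0.97), and Trib3 to Adm2 (0.97) and Gpt2 (0.97). Ppp1r15a lay closest to Gsk3b (0.99) and Derl1 (0.97), and Atf3 to Mia2 (0.99) and Stx3 (0.98). Sesn2 was closest to Pex14 (0.99) and Gtpbp3 (0.99), both highest in AEG 3482. The best matches were weaker for Ddit3, with Tbc1d31 (0.95) and Maoa (0.94), and for Cebpb, with Nt5c2 (0.93) and Tab1 (0.91). Within the 10 genes, Atf5 and Chac1 were most alike (r = 0.99) and Cebpb and Sesn2 least (r = −0.36).

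Kinases and eIF2 factors upstream of the members were called in both directions. Of 20 genes for eIF2 kinases, eIF2, eIF2B and their modifiers, 12 higher and 5 lower genes were called in Cardamonin, 11 higher and 5 lower in AEG 3482, 8 higher and 4 lower in Podofilox and 7 higher and 2 lower in Antimycin A. Counts were 3 higher and 3 lower in Clofilium tosylate, 2 higher and 6 lower in Diphenyleneiodonium Cl, 2 higher and 2 lower in BerberineA and 0 higher and 3 lower in Dihydrorotenone. List medians lay between −0.02 and 0.27. The share of the list called was within 1.5 times that of all genes in Cardamonin (85% against 70.3%), AEG 3482 (80% against 68.1%), Podofilox (60% against 46.2%), Antimycin A (45% against 37.3%), Clofilium tosylate (30% against 23.4%), BerberineA (20% against 21.7%) and Dihydrorotenone (15% against 14.4%), so these counts do not set the list apart, and it was 40% against 25.7% in Diphenyleneiodonium Cl. In Cardamonin and AEG 3482 no share could exceed that bound. Eif2ak3, which encodes the endoplasmic reticulum kinase PERK, fell in BerberineA from 24.5 ± 1.83 TPM to 18.0 ± 1.08 TPM (log2 fold change −0.42, limma adjusted p = 1.48e-05). It also fell in Antimycin A (−0.45), Clofilium tosylate (−0.38), Dihydrorotenone (−0.30) and Diphenyleneiodonium Cl (−0.24; limma adjusted p at most 0.00541). It rose in Podofilox (0.45, adjusted p = 1.43e-06) and AEG 3482 (0.20, adjusted p = 0.00671), and was not called in Cardamonin (−0.13, adjusted p = 0.0549). Dnajc3, whose product restrains PERK, had a similar split. It fell in Antimycin A from 50.5 ± 2.06 TPM to 34.2 ± 0.791 TPM (log2 fold change −0.55, limma adjusted p = 1.35e-10) and in the same other 4 compounds, and rose in Cardamonin, Podofilox and AEG 3482 (0.34, 0.40 and 0.43). Eif2ak2, which encodes the RNA-sensing kinase PKR, rose in Antimycin A from 27.8 ± 4.39 TPM to 39.2 ± 3.82 TPM (log2 fold change 0.49, limma adjusted p = 0.000321), and fell in Cardamonin to 15.03 ± 2.03 TPM (−0.84, adjusted p = 4.76e-08). Impact, an inhibitor of the amino acid sensing kinase GCN2, rose in Cardamonin from 113 ± 6.65 TPM to 228 ± 6.63 TPM (log2 fold change 1.01, limma adjusted p = 6.82e-17). Ppp1r15b, the constitutive counterpart of Ppp1r15a in eIF2 dephosphorylation, fell in AEG 3482 from 74.0 ± 3.36 TPM to 34.5 ± 1.75 TPM (log2 fold change −1.08, limma adjusted p = 5.19e-16).

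Targets of ATF4 in amino acid synthesis and transport (20 genes) were called 17 higher and 1 lower in Podofilox, 16 higher and 2 lower in Cardamonin, 12 higher and 4 lower in AEG 3482, 13 higher and 2 lower in Clofilium tosylate and 12 higher and 2 lower in Antimycin A. None rose in the other 3 compounds: 12 of the 20 fell in Dihydrorotenone, 9 in Diphenyleneiodonium Cl and 5 in BerberineA. The list medians were 1.07 in Cardamonin, 0.87 in Podofilox, 0.45 in AEG 3482, 0.40 in Clofilium tosylate and 0.33 in Antimycin A, against −0.26, −0.21 and −0.07 in Dihydrorotenone, Diphenyleneiodonium Cl and BerberineA. Shares called within 1.5 times those of all genes were found in Cardamonin (90% against 70.3%), AEG 3482 (80% against 68.1%) and BerberineA (25% against 21.7%), and in the other 5 compounds the list's share was larger. For Cardamonin and AEG 3482 a share beyond that bound was not possible. Mthfd2 rose in Podofilox from 6.62 ± 2.06 TPM to 30.0 ± 0.696 TPM (log2 fold change 2.06, limma adjusted p = 1.11e-11) and fell in Dihydrorotenone to 4.09 ± 0.295 TPM (adjusted p = 0.0121). Slc7a11, the cystine transporter, which NRF2 also raises, climbed in Cardamonin from 19.2 ± 3.41 TPM to 435 ± 17.6 TPM (log2 fold change 4.45, limma adjusted p = 2.72e-22). Pycr1, an enzyme of proline synthesis, went the other way in Antimycin A, from 17.2 ± 2.11 TPM to 7.34 ± 1.16 TPM (log2 fold change −1.12, limma adjusted p = 6.26e-08), although most of its list rose there.

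Genes of tRNA charging rose in most compounds, with few called in Dihydrorotenone or Diphenyleneiodonium Cl. All 12 tested rose in each of Antimycin A, Cardamonin, Clofilium tosylate and Podofilox, and 8 higher and 1 lower were called in AEG 3482, while Xpot, also on the list, was not tested. BerberineA raised 6 and lowered none, Diphenyleneiodonium Cl had 1 higher and 2 lower, and Dihydrorotenone lowered 2. Medians were 0.91 in Cardamonin, 0.65 in Podofilox, 0.46 in AEG 3482, 0.33 in Clofilium tosylate, 0.42 in Antimycin A, 0.15 in BerberineA, −0.04 in Dihydrorotenone and 0.0033 in Diphenyleneiodonium Cl. Compared with all genes, the share called was within 1.5 times in Cardamonin (100% against 70.3%), AEG 3482 (75% against 68.1%), Diphenyleneiodonium Cl (25% against 25.7%) and Dihydrorotenone (16.7% against 14.4%), and larger in the other 4. No share in Cardamonin or AEG 3482 could exceed that bound. Aars, an alanyl-tRNA synthetase gene, rose in Cardamonin from 39.7 ± 3.83 TPM to 165 ± 14.1 TPM (log2 fold change 2.03, limma adjusted p = 7.69e-18). Cars, for cysteine, rose in BerberineA from 31.1 ± 3.07 TPM to 40.5 ± 1.36 TPM (log2 fold change 0.37, limma adjusted p = 0.00364). Among signalling and secreted targets, 10 of 11 tested, Gdf15, a circulating stress hormone, rose in Cardamonin from 5.06 ± 0.725 TPM to 179.6 ± 7.76 TPM (log2 fold change 4.91, limma adjusted p = 9.58e-24) and in AEG 3482 to 59.9 ± 4.74 TPM. Gdf15 also rose in Diphenyleneiodonium Cl, to 13.6 ± 0.754 TPM (1.27, adjusted p = 1.97e-10), where Atf4 did not. Angptl4 fell in Antimycin A from 166 ± 19.5 TPM to 49.2 ± 7.52 TPM (log2 fold change −1.74, limma adjusted p = 6.2e-10) and in all of Dihydrorotenone, Diphenyleneiodonium Cl, BerberineA and Clofilium tosylate. Over this list the counts were 6 higher and 2 lower in Podofilox, 5 higher and 1 lower in Clofilium tosylate, 5 higher and 3 lower in AEG 3482, 4 higher and 3 lower in Cardamonin and 4 higher and 2 lower in Antimycin A. They were 5 higher and 1 lower in Diphenyleneiodonium Cl, 4 higher and 1 lower in BerberineA and 3 higher and 2 lower in Dihydrorotenone. Here Cardamonin (70% against 70.3%) and AEG 3482 (80% against 68.1%) had shares called within 1.5 times those of all genes, a bound that no share could exceed in them. The list's share was larger in every other compound.

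**Figure D4:**
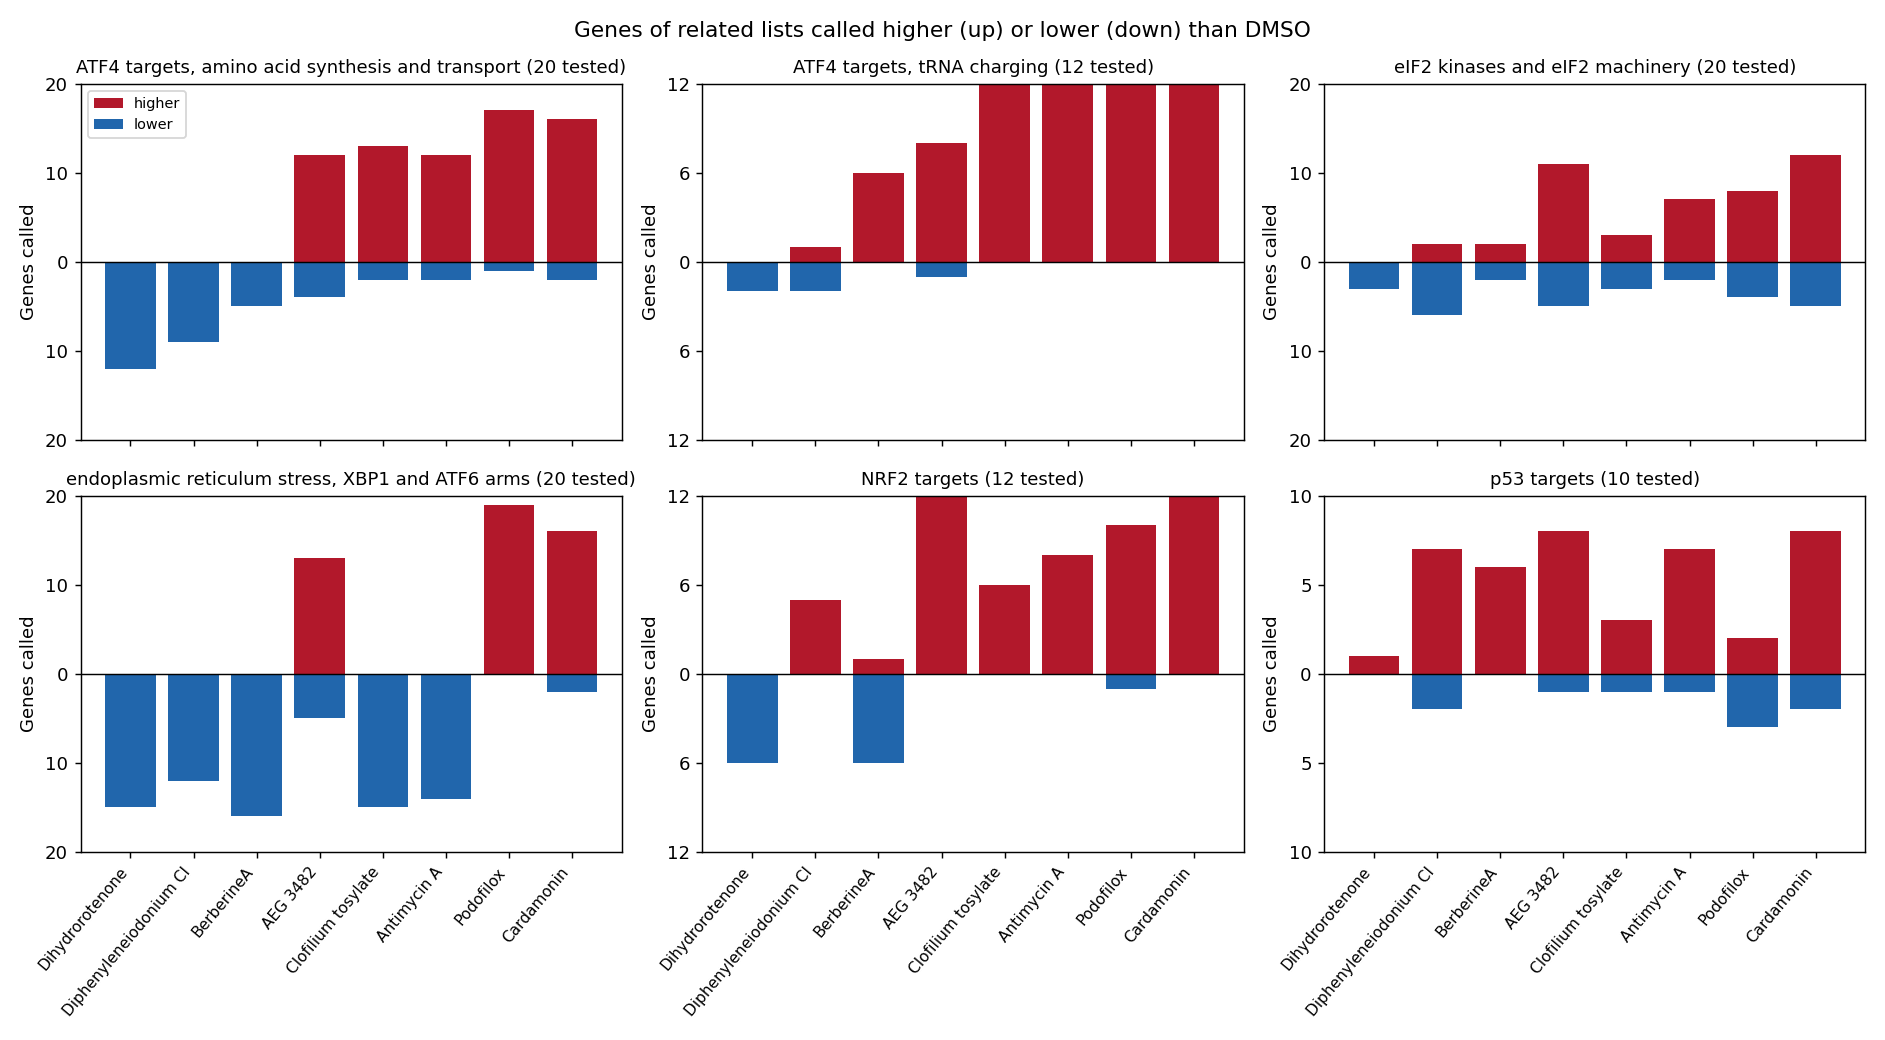
Number of genes called higher (red, upward) or lower (blue, downward) than DMSO at a limma adjusted p below 0.05 in 6 related gene lists (panels, with the number tested), by compound (horizontal axis). The 12 tested genes of tRNA charging are all higher in 4 compounds, and the endoplasmic reticulum list is lower in 5 compounds and higher in Podofilox, Cardamonin and AEG 3482.

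The other arms of the unfolded protein response did not follow the members in every compound. Of 20 genes of the XBP1 and ATF6 arms, 19 higher and 0 lower were called in Podofilox, 16 higher and 2 lower in Cardamonin and 13 higher and 5 lower in AEG 3482. None was higher in the other 5 compounds, where 16 were lower in BerberineA, 15 in Clofilium tosylate, 15 in Dihydrorotenone, 14 in Antimycin A and 12 in Diphenyleneiodonium Cl. Medians were 0.52 in Cardamonin and 0.49 in Podofilox, against −0.19 in Antimycin A and −0.26 in Clofilium tosylate. The list's share called exceeded 1.5 times that of all genes in 6 compounds. It could not do so in Cardamonin (90% against 70.3%) or AEG 3482 (90% against 68.1%), so those shares do not set these compounds apart. By direction, the 16 higher and 2 lower of 20 in Cardamonin compare with 37.3% of all genes higher and 33% lower. The 13 higher and 5 lower in AEG 3482 compare with 41.3% and 26.8%. Hspa5, the chaperone BiP, fell in Antimycin A from 682 ± 23.5 TPM to 487 ± 16.4 TPM (log2 fold change −0.48, limma adjusted p = 5.42e-09), while 8 of the 10 members rose in the same libraries. Hyou1, another chaperone of the endoplasmic reticulum, rose in Podofilox from 56.0 ± 1.52 TPM to 102 ± 3.82 TPM (log2 fold change 0.85, limma adjusted p = 9.24e-12).

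Targets of NRF2 and p53 were read because both factors also act on members. All 12 NRF2 targets rose in Cardamonin and in AEG 3482, with medians of 3.13 and 2.65, while 10 higher and 1 lower were called in Podofilox and 8 higher and 0 lower in Antimycin A. Hmox1, haem oxygenase, rose in Cardamonin from 523 ± 81.9 TPM to 12070.0 ± 494 TPM (log2 fold change 4.54, limma adjusted p = 9.58e-24) and in AEG 3482 to 7249 ± 191 TPM. These are the 2 compounds with the highest Sesn2, and the part of NRF2 in that level was not tested. Counts were 6 higher and 0 lower in Clofilium tosylate, 5 higher and 0 lower in Diphenyleneiodonium Cl, 1 higher and 6 lower in BerberineA and 0 higher and 6 lower in Dihydrorotenone. The share of the NRF2 list called was within 1.5 times that of all genes in Cardamonin (100% against 70.3%) and AEG 3482 (100% against 68.1%), while its medians there were far above theirs. In those 2 compounds no share could exceed that bound. The list's share was larger in every other compound, among them Podofilox (91.7% against 46.2%) and Dihydrorotenone (50% against 14.4%). Of 10 p53 targets, 8 higher and 2 lower were called in Cardamonin, 8 higher and 1 lower in AEG 3482, 7 higher and 1 lower in Antimycin A, 7 higher and 2 lower in Diphenyleneiodonium Cl and 2 higher and 3 lower in Podofilox, and the counts were 6 higher and 0 lower in BerberineA, 3 higher and 1 lower in Clofilium tosylate and 1 higher and 0 lower in Dihydrorotenone. The p53 shares called were within 1.5 times those of all genes in Cardamonin (100% against 70.3%), AEG 3482 (90% against 68.1%), Podofilox (50% against 46.2%) and Dihydrorotenone (10% against 14.4%). They were larger in Diphenyleneiodonium Cl (90% against 25.7%), BerberineA (60% against 21.7%), Antimycin A (80% against 37.3%) and Clofilium tosylate (40% against 23.4%). Again, a share above the bound was not possible in Cardamonin or AEG 3482. Cdkn1a, the cell cycle inhibitor p21, rose in AEG 3482 from 437 ± 29.0 TPM to 1179 ± 41.4 TPM (log2 fold change 1.43, limma adjusted p = 1.84e-17).

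Relatives of the members did not move as a block. Of 15 tested, 9 higher and 4 lower were called in AEG 3482, 7 higher and 3 lower in Cardamonin, 6 higher and 5 lower in Podofilox and 3 higher and 4 lower in Antimycin A, and at most 3 in either direction in the other 4 compounds. These shares were within 1.5 times those of all genes in Cardamonin (66.7% against 70.3%), AEG 3482 (86.7% against 68.1%), Antimycin A (46.7% against 37.3%), Clofilium tosylate (26.7% against 23.4%) and Dihydrorotenone (13.3% against 14.4%). They were larger in Podofilox (73.3% against 46.2%) and Diphenyleneiodonium Cl (40% against 25.7%) and smaller in BerberineA (13.3% against 21.7%). Sesn1, a relative of Sesn2 and a p53 target, fell in Cardamonin from 30.5 ± 1.37 TPM to 6.30 ± 0.930 TPM (log2 fold change −2.12, limma adjusted p = 1.24e-20), and in Podofilox to 14.0 ± 0.779 TPM, while Sesn2 rose in both. Trib2, a relative of Trib3, fell in Antimycin A from 23.5 ± 1.26 TPM to 9.77 ± 0.957 TPM (log2 fold change −1.19, limma adjusted p = 9.17e-14) and in Cardamonin to 8.57 ± 0.604 TPM, opposite to Trib3. Among 14 immediate early genes, which share Atf3's rapid induction, counts were 8 higher and 2 lower in Podofilox, 3 higher and 7 lower in Cardamonin, 7 higher and 4 lower in AEG 3482, 3 higher and 4 lower in Antimycin A and 0 higher and 4 lower in Clofilium tosylate. They were 2 higher and 4 lower in BerberineA, 2 higher and 2 lower in Diphenyleneiodonium Cl and 0 higher and 3 lower in Dihydrorotenone. Counts near the share of all genes, within 1.5 times, were those in Cardamonin (71.4% against 70.3%), AEG 3482 (78.6% against 68.1%), Antimycin A (50% against 37.3%), Diphenyleneiodonium Cl (28.6% against 25.7%), Clofilium tosylate (28.6% against 23.4%) and Dihydrorotenone (21.4% against 14.4%). The share was larger in Podofilox (71.4% against 46.2%) and BerberineA (42.9% against 21.7%). For the relatives and the immediate early genes alike, a share above the bound was not possible in Cardamonin or AEG 3482. Fos itself was lower in Podofilox, from 11.7 ± 4.35 TPM to 4.35 ± 0.820 TPM (log2 fold change −1.19, limma adjusted p = 0.000872), where Atf3 was at its highest.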

How the data were processed

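Per the series text and the submitters' processing notes, the authors quantified transcripts with kallisto 0.43.1, listed with FastQC and the mm10 build, and summarised them per gene with tximport. The deposited values are TPM made by the authors. The transcript index, annotation release and strand setting are not given in the sources used here. Groups came from the treatment labels. Where the series text counts 5 DMSO replicates, the labels give 6, and all 6 were used. Of 29861 gene identifiers 29426 (98.5%) matched GENCODE M21 on GRCm38.

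After transformation to log2(TPM + 1), the 13644 genes that reached 1 TPM in 3 or more libraries entered a limma fit (3.58.1, R 4.3.3) of all 30 libraries, with group means and trended empirical Bayes moderation. Benjamini-Hochberg adjustment ran over all genes tested, with a threshold of 0.05, within each of 8 comparisons with DMSO and 28 between compounds. The fitting code was tested on simulated data. The same libraries gave all values, no 2 libraries were identical, and precision rests on the spread between replicates alone. All 10 members are named, with the 2 most alike genes per member. Other genes could be named from the 2 largest called changes per list and compound, and those printed were picked among these with their values known. The members and lists were chosen with earlier results of these data known. Alternatives were other pseudocounts, filters, scalings, a replicate block, fits of fewer groups, protein-coding genes alone and each library left out in turn. Promoter sequences came from RefSeq (GRCm38.p6).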

Additional observations from a re-analysis of the deposited data

Results flagged for a closer look

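Among the 6 DMSO libraries, Ddit3 in replicate 2 stood at 97.0 TPM, apart from the next value of 83.7 TPM. Trib3 in replicate 1 of DMSO stood at 3.05 TPM, below the next value of 4.26 TPM. By Dixon's test of the gap to the next sample, these were 2 of the 10 members tested, where chance marks about 1 in 20 groups. The calls of both genes against DMSO that stood in the full fit also stood without either library.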

How the results depend on the processing

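Of 80 changes of a member against DMSO, 55 were called. Under 41 alternative settings each, none of the called changes turned sign, 9 lost the call in some setting and 4 uncalled changes gained one. In Dihydrorotenone the count of members called was 2 in place of 4 under median-ratio or quantile scaling and with only the compound and DMSO in the fit, where the genes called fell from 1963 to 969. For Cebpb, 8 pairs of compounds were called after quantile normalization in place of 5. The cause was not tested.

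Leaving out 1 library at a time, the members called ranged from 1 to 5 in Dihydrorotenone (1 without its replicate 1, with 1233 to 2179 genes called), 2 to 5 in Diphenyleneiodonium Cl, 3 to 5 in BerberineA and 7 to 8 in Clofilium tosylate, and stayed at 8 in Antimycin A, 9 in Cardamonin, 8 in AEG 3482 and 10 in Podofilox. Pairs called for Cebpb ranged from 3 (without BerberineA replicate 3) to 7 (without AEG 3482 replicate 3). Of the 72 counts of list genes, alternatives for which were chosen after seeing the data, 19 moved by over 1.5 times in some setting.

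Changes that turned sign were all uncalled and near 0 (log2 scale). Ppp1r15a in BerberineA was −0.014 under median-ratio scaling, −0.022 under quantile normalization and −0.014 without the 20 most abundant genes, and ran from −0.084 to 0.082 with 1 library left out, also turning without DMSO replicate 1 (−0.011) or 5 (−0.0081). Atf3 in AEG 3482 was −0.011 under median-ratio scaling and ran from −0.020 to 0.17 with 1 library left out. With 1 library left out, Cebpb ran from −0.092 to 0.050 in Cardamonin and from −0.13 to 0.075 in AEG 3482, Atf3 from −0.11 to 0.046 in Diphenyleneiodonium Cl and from −0.11 to 0.022 in BerberineA, and Cebpg in BerberineA from −0.044 to 0.0036.

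The replicate numbers did not pair the samples: deviations of same-numbered libraries correlated between −0.05 and 0.12 over 24 pairs, 2 of them over 0.1, and 10 correlated best with their own number. With the replicate number as a block, Chac1 lost its call in Dihydrorotenone (adjusted p = 0.0752) and Diphenyleneiodonium Cl (0.0828), Cebpg lost it in Clofilium tosylate (0.0999) and Chac1 gained one in BerberineA (0.0163). Under this block Atf3 turned to −0.023 in AEG 3482 and −0.025 in Clofilium tosylate, and Cebpb to 0.017 in Cardamonin and 0.017 in AEG 3482.

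The largest shift of the all-gene median was −0.09, in AEG 3482 after median-ratio scaling. The share of higher among called genes in Dihydrorotenone, 34.4% as deposited, was 29.8% without the 20 most abundant genes. TPM hides sequencing depth, so what depth limits cannot be given.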
